A study of Mus musculus with 6 samples.

Results

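The genes described here encode acute-phase and plasma proteins: Hp (haptoglobin), Hpx (hemopexin), Trf (transferrin), Lbp (LPS-binding protein), Saa3 (serum amyloid A3), Serpina3n (a serpin), Ahsg (fetuin-A), Orm1 (alpha-1-acid glycoprotein) and Apoe (apolipoprotein E). They were chosen by symbol, and with their difference between the genotypes on these same arrays already known. A gene was read from a probe set whose platform annotation gives exactly 1 gene symbol. This found 8 of the 9 genes, each with 1 probe set, among 22180 genes read in this way. The only probe set of Trf carries more than 1 symbol, so Trf has no value here. Because the choice used the contrast between the genotypes, the values of the 8 genes are given as a description with no test.

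RNA of dissected sinoatrial node (SAN) tissue, the pacemaker region of the right atrium, was hybridised to 6 Affymetrix whole-transcript arrays, 3 of wild-type (WT) and 3 of HCN4FEA mice. HCN4FEA is a global knockin line in which substitutions in the pacemaker channel HCN4 abolish its response to cAMP, so every cell of the mouse carries them. All mice were adults on a mixed genetic background, with no treatment named in the labels. The methods give 3 mice of each genotype for these arrays. The deposited values are log2 signals after RMA (background correction, quantile normalisation and a summary per probe set).

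Haptoglobin binds free haemoglobin, hemopexin binds haem and transferrin carries iron in plasma. Lbp hands bacterial lipopolysaccharide to Cd14 and the Tlr4 receptor complex, serpins and fetuin-A act on proteases and on mineral deposition, and apolipoprotein E carries lipids. Most of these proteins are made by the liver, where interleukin-6, glucocorticoids and C/EBP factors control many of them, and several are also made locally in fat, macrophages and other tissues. In bulk tissue, fewer cells of a type and less RNA per cell cannot be told apart.

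Array medians lay between 2.44 and 2.51. Of 11 pacemaker genes such as Hcn4 and Tbx3, 11 lay above the 99th percentile (2.42) of a background of 1400 probe sets for olfactory or vomeronasal receptors, genes with no known role in this tissue, and 11 of 11 atrial genes did too. The labels call the mice male, yet Xist, which is transcribed from the inactive X chromosome, averaged 9.12 over the 6 arrays, and the Y-linked Uty (1.29), Eif2s3y (1.38) and Kdm5d (1.41) lay at the background. WT 1 and HCN4FEA 3 stood apart in neuron markers: the mean of the 16 measured markers, each centred on its 6 arrays, was 1.26 and 1.85 log2 units there, and between -0.93 and -0.64 on the other 4 arrays. By the same score, WT 1 was lowest in mesothelium markers (-0.69, against 0.07 to 0.21 on the other arrays). HCN4FEA 3 was lowest in atrial markers (-0.35, against 0.01 to 0.17). The differences of the genes with a signal above the background, and the calls of the pathway genes, are therefore also given without these 2 arrays.

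Of the 8 genes, 3 were higher and 2 were lower in HCN4FEA with no overlap between the genotypes, and 3 overlapped. Among all 25341 probe sets with a symbol, 11.2% did not overlap, 6.31% higher and 4.92% lower. A difference of at least 1.5-fold was seen for 2 genes higher (Ahsg, Lbp) and 3 lower (Hp, Orm1, Saa3), where 0.813% and 0.762% of all probe sets (1.57% in either direction) passed the same fold. Orm1 and Saa3 had means below the receptor percentile, and the Saa3 difference rested on WT 3, so of the genes with a mean of at least 4 only 3 differed by that fold (Ahsg, Lbp and Hp). The median difference of the 8 genes was -0.05 on the log2 scale and that of all probe sets 0.01.

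**Figure D1:**
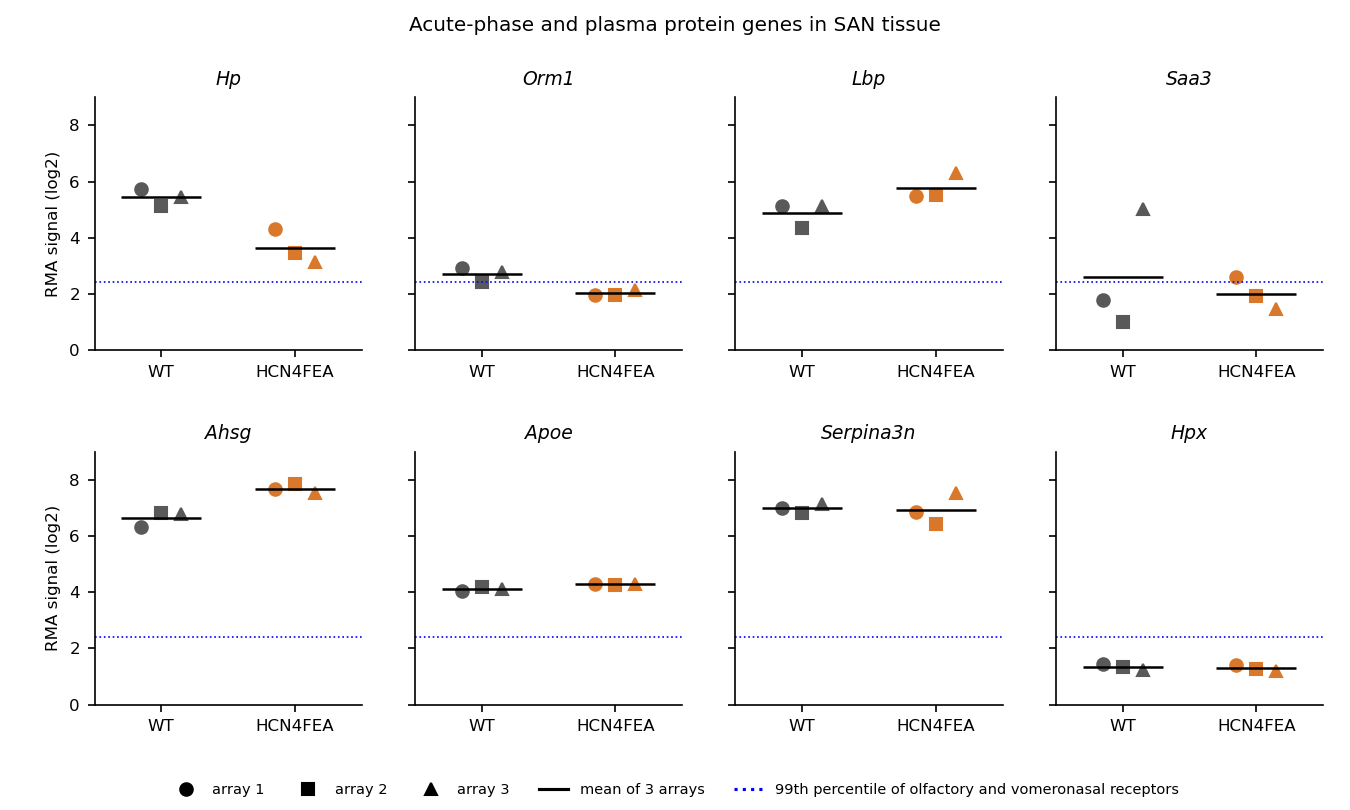
RMA signal (log2) of the 8 genes on each array, with WT in grey, HCN4FEA in orange, the array number as symbol, the mean of 3 arrays as a line and the 99th percentile of the receptor probe sets (2.42) dotted. Hp and Orm1 were lower and Ahsg, Lbp and Apoe higher on all HCN4FEA arrays, while Saa3 was set by WT 3 (5.04).

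Hp, whose product clears free haemoglobin, showed the largest difference of the 8 genes. Its signal was 5.73, 5.15 and 5.45 on WT 1 to 3 and 4.33, 3.46 and 3.16 on HCN4FEA 1 to 3. All HCN4FEA arrays lay below all WT arrays, by 0.82 log2 units at the nearest. The means were 5.44 ± 0.29 and 3.65 ± 0.61 (SD, n = 3 each), a difference of -1.80 (SE 0.29), or 3.47-fold lower in HCN4FEA. Leaving out 1 array at a time gave -2.14 to -1.55, and without WT 1 and HCN4FEA 3 together it was -1.41.

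Hpx, the haem-binding counterpart of Hp, was at the background. Its signal was 1.44, 1.34 and 1.23 in WT and 1.43, 1.26 and 1.19 in HCN4FEA, with 0 of 6 arrays above the receptor percentile. No fold is read from values at that level.

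Orm1, an acidic lipocalin of plasma, was lower in HCN4FEA, but near the background. Its signal was 2.91, 2.43 and 2.78 in WT and 1.95, 1.95 and 2.16 in HCN4FEA. The genotypes did not overlap, and only the WT arrays lay above the receptor percentile, WT 2 barely. The group means differed by -0.69 (SE 0.15), and by -0.65 without WT 1 and HCN4FEA 3, but no fold is read from it, since all HCN4FEA values are at the background. Its close relatives Orm2 and Orm3 were also measured, with differences of 0.49 and 0.01, and neither passed an unadjusted p of 0.05. Probes of such near-identical copies can share target sequence, so Orm1 is uncertain in that respect.

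Lbp was higher in HCN4FEA, with a wide spread in both genotypes. It measured 5.14, 4.36 and 5.13 in WT and 5.50, 5.54 and 6.29 in HCN4FEA. The lowest HCN4FEA array exceeded the highest WT array by 0.36, and WT 2 was low and HCN4FEA 3 high within their groups. The means were 4.88 ± 0.45 and 5.78 ± 0.45, a difference of 0.90 (SE 0.28), 1.87-fold. It was 0.64 without WT 2, 0.64 without HCN4FEA 3, and 0.78 without WT 1 and HCN4FEA 3.

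Saa3, an amyloid A protein made outside the liver in the mouse, was variable within WT. It measured 1.78, 1.00 and 5.04 in WT and 2.60, 1.92 and 1.45 in HCN4FEA. WT 3 alone was far above the others, and 2 of 6 arrays exceeded the receptor percentile. The difference of -0.61 (SE 0.92) had a standard error larger than itself, and without WT 3 it was 0.60 in the opposite direction.

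Ahsg, a cystatin-family protein that keeps calcium phosphate soluble, was higher in HCN4FEA with little spread. It measured 6.31, 6.83 and 6.78 in WT and 7.67, 7.84 and 7.54 in HCN4FEA. The groups were separated by 0.71, with WT 1 the lowest array. The means were 6.64 ± 0.28 and 7.68 ± 0.15, a difference of 1.04 (SE 0.16), or 2.06-fold. The difference stayed between 0.88 and 1.13 when 1 array was left out, and was 0.95 without WT 1 and HCN4FEA 3. The share of the variance over 6 arrays that lay between the genotypes was 88.7% for Ahsg, 84.2% for Hp and 82.4% for Orm1. It was 79.1% for Apoe and 60.2% for Lbp, and 5.42% for Saa3, 5.08% for Hpx and 0.561% for Serpina3n.

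Apoe, made by macrophages and other cells as well as by the liver, had separate groups but a small difference. It measured 4.04, 4.19 and 4.11 in WT and 4.30, 4.26 and 4.30 in HCN4FEA, with 0.07 between the nearest arrays. The difference was 0.18 (SE 0.10), 1.13-fold, and 0.13 without WT 1 and HCN4FEA 3.

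Serpina3n, an inhibitor of leukocyte proteases, did not separate the genotypes. It measured 7.003, 6.83 and 7.13 in WT and 6.84, 6.44 and 7.54 in HCN4FEA, where HCN4FEA 2 was the lowest and HCN4FEA 3 the highest of all 6 arrays. The difference was -0.05 (SE 0.26), and left-out arrays moved it between -0.35 and 0.20. Serpina3n belongs to a family of near-identical copies, so its signal may include theirs.

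Markers of other cells gave the following values. Of 20 adipocyte markers 7 were lower at an unadjusted limma p under 0.05 (2.71% of all probe sets were) and 0 were higher, with 19 of 20 above the receptor percentile and Lep (leptin) below it. Adipoq (adiponectin) fell by 1.25, Plin1 (the lipid droplet coat protein perilipin) by 1.19 and Cidec (a lipid droplet protein) by 1.75. These 3 did not pass 0.05 by the methods' t-test, which 2 of the 7 did. The brightest genes of the list, Fabp4 (a fatty acid carrier, -0.06), Lpl (lipoprotein lipase, -0.04) and Scd1 (a desaturase, -0.32), did not pass. The mean score of the list ran from 0.12 to 0.41 in WT and from -0.61 to -0.10 in HCN4FEA, a lower range, in the direction of Hp and Orm1, which fat also makes. Lbp, Ahsg and Apoe differed in the other direction (0.90, 1.04 and 0.18), and Serpina3n by -0.05. The part of fat cells in these values was not tested. The lowest adipocyte score was on HCN4FEA 2. Hp was lowest on HCN4FEA 3, and Orm1, near the background, on HCN4FEA 2, with HCN4FEA 1 almost equal (both 1.95).

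The macrophage list had 4 of 16 genes higher (Cd163, Trem2, Csf1r and Lyve1, while Lyz2 and C1qb, at -0.06 and 0.26, did not pass), in the direction of Apoe and Lbp (3.4% of all probe sets were), and its scores overlapped, from -0.16 to -0.01 in WT and -0.07 to 0.27 in HCN4FEA. Its part in those values was not tested. With 1 array left out in turn, Csf1r passed in 1 of 6 fits, Lyve1 in 2, and Cd163 and Trem2 in 6. The groups of Lyve1 overlapped, and the WT mean of Trem2 (2.29) lay below the receptor percentile. Cd163 lost the threshold without WT 1 and HCN4FEA 3. Hepatocyte markers were mostly at the background: 18 of 22 lay below the receptor percentile, Alb (albumin) at 1.18, Apoa2 at 1.54 and Fgb (fibrinogen) at 1.29 among them, while Cyp2e1, Vtn, Ttr and Tat lay above it. The hepatocyte scores, -0.09 to 0.06 in WT and -0.04 to 0.06 in HCN4FEA, overlapped. Of 14 neutrophil markers 13 lay below that percentile, with Mmp9 lower.

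**Figure D2:**
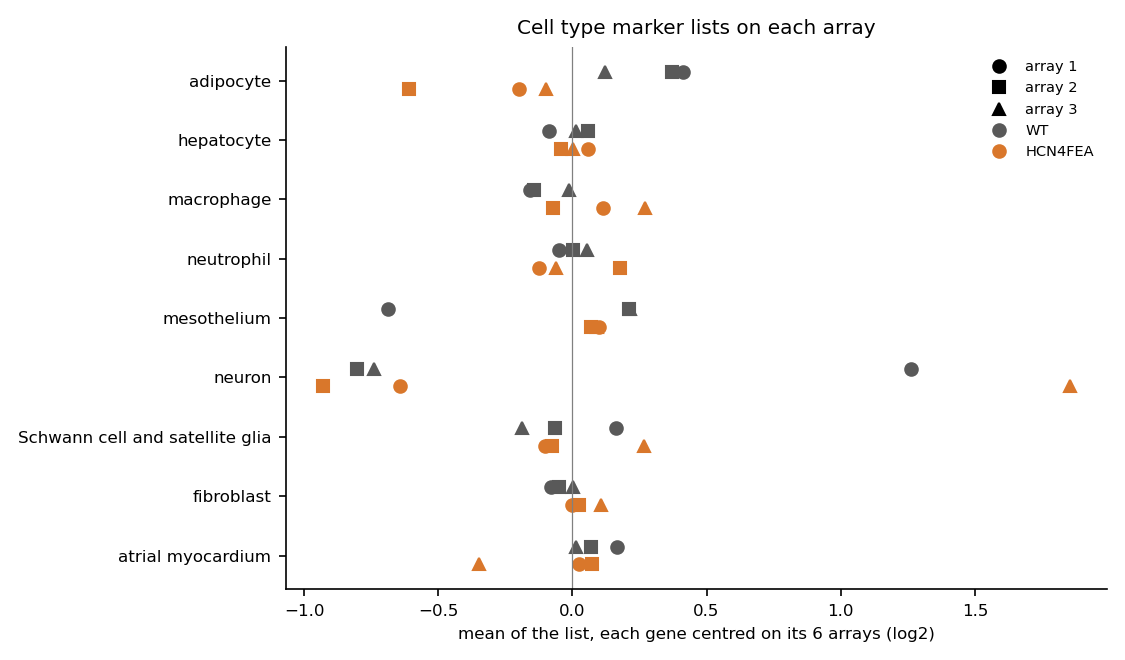
Mean of each cell type marker list, every gene centred on its 6 arrays (log2), for WT in grey and HCN4FEA in orange, with the array number as symbol. The adipocyte list is lower on all HCN4FEA arrays (-0.61 to -0.10), and the neuron list stands high on WT 1 (1.26) and HCN4FEA 3 (1.85).

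The genes around these proteins were described with lists of their pathways. Of 207 genes listed, 183 were measured: 18 (9.84%) were higher and 3 (1.64%) lower at an unadjusted limma p under 0.05, where 3.4% and 2.71% of all probe sets were (6.1% in either direction). Of the 18, 4 differed by at least 1.5-fold, and 0 of the 3 did (0.604% and 0.529% of all probe sets). Among those 4 was Cfi, whose WT mean lay below the receptor percentile. After Benjamini-Hochberg adjustment over all probe sets by limma, 0 genes passed 0.05, and the lowest adjusted p of all probe sets was 0.724 (1547 probe sets had an unadjusted p under 0.05). Their median difference was 0.02, against 0.01 for all probe sets, and 76 of the 183 lay below the receptor percentile. Without WT 1 and HCN4FEA 3, 7 genes (3.83%) were higher and 5 (2.73%) lower, where 2.63% and 2.26% of all probe sets were. The methods' t-test gave 6 genes higher (3.28%, against 2.30% of all probe sets). The shares by the methods' t-test and without WT 1 and HCN4FEA 3 lay near those of all probe sets. The limma share of genes higher over all 6 arrays (9.84%, against 3.4%) did not. The lists were chosen with earlier results of these data known, so these shares are a description and were not tested.

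**Figure D3:**
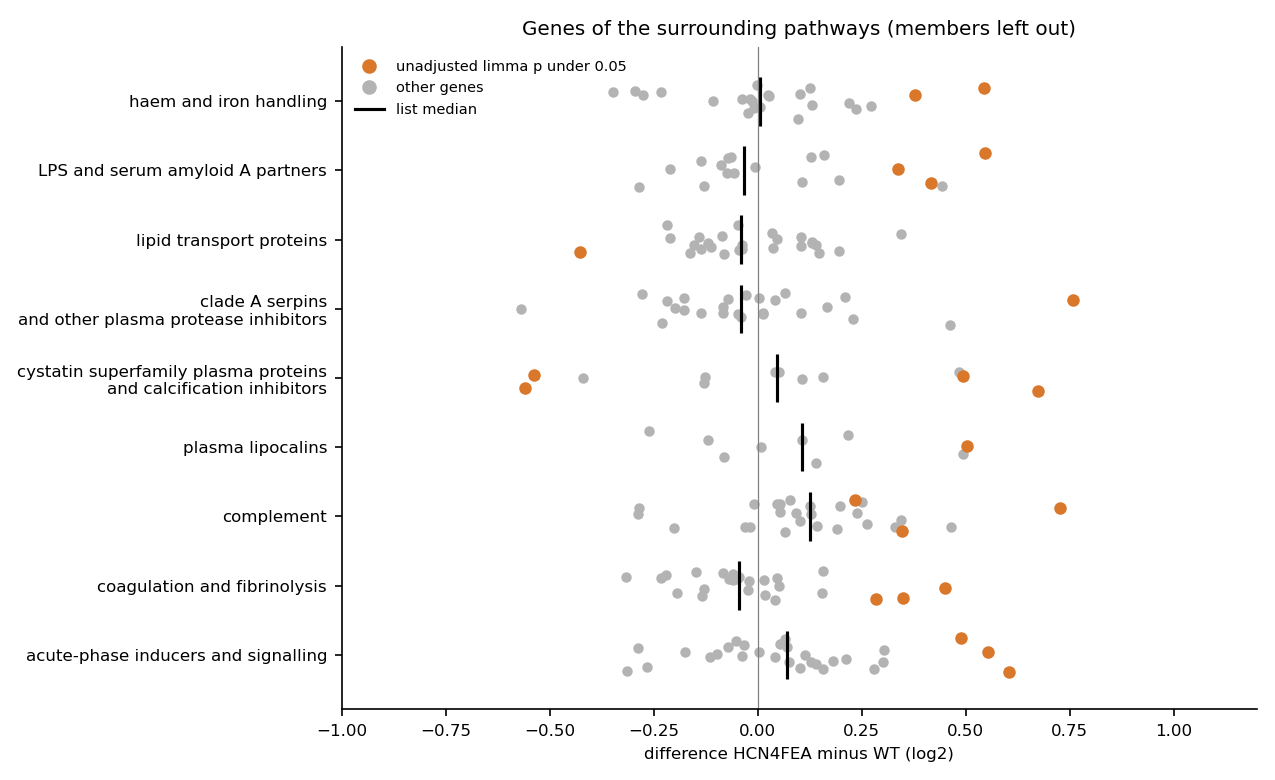
Difference between HCN4FEA and WT (log2) for each gene of 9 pathway lists without the 8 genes, with the list median as a line. Orange points passed an unadjusted limma p of 0.05, of which 18 were higher and 3 lower.

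In the haem and iron list, 2 of 23 genes were higher and 0 lower. Cd163, the macrophage receptor that takes up haptoglobin bound to haemoglobin, was 5.36, 5.54 and 5.66 in WT and 5.91, 5.86 and 5.93 in HCN4FEA, all above WT, a difference of 0.38 (SE 0.12, limma adjusted p = 0.778). Without WT 1 and HCN4FEA 3 it was 0.28 and no longer past the threshold. Heph, a copper oxidase of iron export, was the other, with 0.54. Its groups overlapped, and without WT 1 and HCN4FEA 3 it was 0.36 and lost the threshold. The ferritin heavy chain Fth1 and the iron hormone Hamp (hepcidin), both far above the receptor percentile, differed by -0.02 and 0.10, and neither passed.

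In the LPS and serum amyloid A list, 3 of 18 genes were higher. They are the receptor Tlr4, its partner Ly96 and the related receptor Tlr2, with differences of 0.55, 0.42 and 0.34. Tlr4 was 5.15, 5.02 and 5.23 in WT and 5.47, 5.46 and 6.11 in HCN4FEA, with HCN4FEA 3 far above the rest. It was 0.33 without HCN4FEA 3 alone and lost the threshold without WT 2 (0.49). All 3 genes lost the threshold without WT 1 and HCN4FEA 3. The LPS co-receptor Cd14, which receives LPS from Lbp, differed by -0.07 and the lipid transfer protein Pltp, a relative of Lbp, by -0.14, and neither passed. The liver forms Saa2 and Saa4 and the pentraxins Crp and Apcs were at the background.

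Among plasma protease inhibitors 1 of 25 was higher, A2m (alpha-2-macroglobulin, a broad inhibitor). It was 4.50, 5.11 and 4.78 in WT and 5.44, 5.55 and 5.66 in HCN4FEA, without overlap, a difference of 0.76 (SE 0.16, limma adjusted p = 0.724). It was 0.55 without WT 1 and HCN4FEA 3 and remained past the threshold. The clade A serpins were mostly at the background, as 19 of the 25 genes of that list were. The C1 inhibitor Serping1 differed by 0.07 and did not pass.

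The list with Ahsg's relatives and calcification inhibitors had 2 of 12 genes higher and 2 lower. Those higher were Itih5 and Itih2, chains of hyaluronan-binding proteins, with 0.67 and 0.49, and those lower were Itih3 and the kininogen Kng2, both at the background. Itih5 was 4.98, 5.24 and 5.76 in WT and 5.84, 5.89 and 6.27 in HCN4FEA, and lost the threshold without HCN4FEA 3 (0.54) and without WT 1 and HCN4FEA 3 together (0.36), as Itih2 did (0.31). Mgp (matrix Gla protein, an inhibitor of vascular calcification) differed by 0.16 and Cst3 (cystatin C) by 0.04, and neither passed. Among lipocalins 1 of 9 was higher, Ptgds (prostaglandin D synthase, 0.50), which was 0.21 and lost the threshold without WT 1 and HCN4FEA 3. In lipid transport 1 of 26 genes was lower, Abcg1 (a cholesterol exporter, -0.43), and 0 higher. Clu and Lpl differed by 0.05 and -0.04 and did not pass.

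Complement had 3 of 27 genes higher: the protease Cfi (0.73), the membrane inhibitor Cd59a (0.35) and C8b, at the background (0.23). Cfi was 2.15, 2.49 and 2.31 in WT and 3.39, 2.83 and 2.90 in HCN4FEA, without overlap. Its WT mean (2.32) lay below the receptor percentile (2.42), so no fold is read from it. C8b lost the threshold without WT 1 and HCN4FEA 3 (0.20), while Cfi and Cd59a kept it (0.71 and 0.42). Cd59a has a near-identical copy, Cd59b, so its value is uncertain. C1qb and C7 differed by 0.26 and 0.33 and did not pass. In coagulation, 3 of 25 were higher, Plat (tissue plasminogen activator, 0.45), Vwf (von Willebrand factor, 0.35) and Pros1 (protein S, 0.29), all lost without WT 1 and HCN4FEA 3. With 1 array left out in turn, A2m, Cfi, Cd59a, Cd163 and Cebpd passed in 6 of 6 fits, while Heph, Ly96, Tlr2, Itih2, Ptgds, Abcg1, Plat and Vwf passed in 2, Pros1 in 1 and C8b in 0.

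Of the inducers and signalling genes of the acute phase 3 of 29 were higher. Cebpd, a C/EBP factor induced by interleukin-6, was 3.63, 3.85 and 3.55 in WT and 4.06, 4.58 and 4.21 in HCN4FEA, a difference of 0.60 (SE 0.16). Nfkbia, the inhibitor of NF-kB, was 6.04, 6.36 and 6.31 in WT and 6.70, 7.02 and 6.45 in HCN4FEA, a difference of 0.49 (SE 0.17). Tsc22d3, a glucocorticoid-induced gene, was 3.91, 4.41 and 4.16 in WT and 4.93, 4.79 and 4.41 in HCN4FEA, a difference of 0.55 (SE 0.18). All WT values lay below all HCN4FEA values for Cebpd and Nfkbia, while the highest WT and lowest HCN4FEA values of Tsc22d3 met at 4.41. These 3 remained past the threshold without WT 1 and HCN4FEA 3. Nfkbia lost it without WT 1 (0.39) or HCN4FEA 2 (0.34), and Tsc22d3 without WT 1 (0.43) or HCN4FEA 1 (0.44). The cytokine Il6 was at the background (1.38), and Il6st, its receptor subunit, and Stat3, its effector, differed by 0.05 and 0.07 and did not pass.

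**Figure D4:**
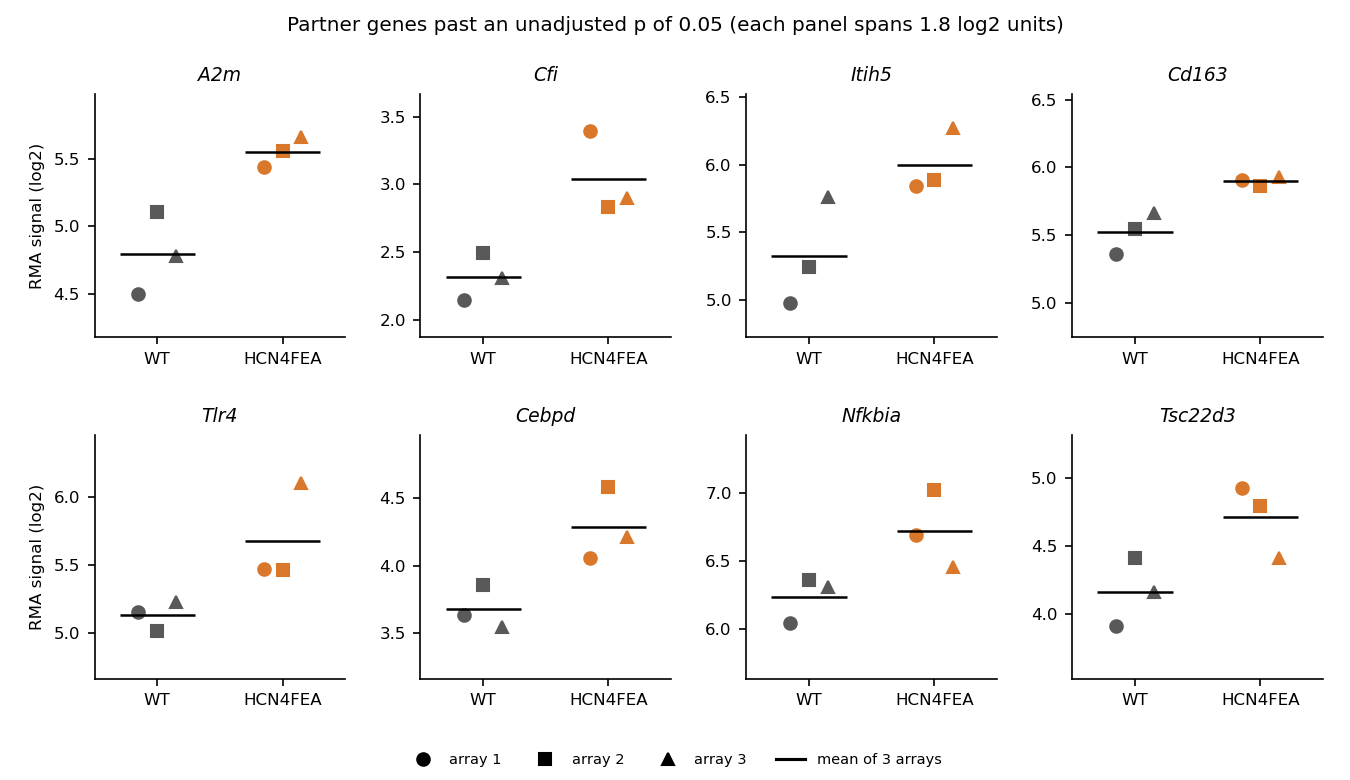
RMA signal (log2) of 8 partner genes past an unadjusted limma p of 0.05, with WT in grey, HCN4FEA in orange, the array number as symbol and the mean of 3 arrays as a line (each panel has its own axis of the same span). A2m shows a difference of 0.76 and Cebpd of 0.60, and the highest Tlr4 value is on HCN4FEA 3 (6.11).

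Promoter sequences were matched for 5 of the 9 genes (RefSeq, GRCm38.p6), Ahsg, Hpx, Serpina3n, Saa3 and Apoe. They were searched on both strands, over 250 bases before the start, for the C/EBP site TTGCNNAA, which C/EBP factors such as Cebpd bind. It was found in 3 of the 5 genes, Ahsg, Hpx and Saa3, and in 9.56% of 32851 promoters of the same length. Capitals mark the match, and each sequence ends at the base before the start. The match lies 32 to 25 bases before the start in Ahsg (chr16:22891765-22892014, plus strand), 200 to 193 in Hpx (chr7:105600117-105600366, minus strand) and 99 to 92 in Saa3 (chr7:46715677-46715926, minus strand).
Ahsg: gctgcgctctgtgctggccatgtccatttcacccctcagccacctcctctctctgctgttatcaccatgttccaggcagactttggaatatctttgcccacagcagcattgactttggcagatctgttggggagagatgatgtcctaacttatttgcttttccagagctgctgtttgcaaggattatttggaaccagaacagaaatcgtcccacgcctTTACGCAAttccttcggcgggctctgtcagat
Hpx: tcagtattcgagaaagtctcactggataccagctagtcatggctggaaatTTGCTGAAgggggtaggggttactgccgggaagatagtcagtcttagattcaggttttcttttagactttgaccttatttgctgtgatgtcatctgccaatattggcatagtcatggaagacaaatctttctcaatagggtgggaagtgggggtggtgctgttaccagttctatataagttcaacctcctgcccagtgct
Saa3: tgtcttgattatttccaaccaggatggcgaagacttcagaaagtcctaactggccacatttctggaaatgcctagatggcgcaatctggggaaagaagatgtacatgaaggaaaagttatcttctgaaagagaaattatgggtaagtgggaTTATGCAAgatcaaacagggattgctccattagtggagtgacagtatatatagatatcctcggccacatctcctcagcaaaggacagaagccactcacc
The 3 genes with the match did not share a pattern on the arrays: Ahsg was higher in HCN4FEA, Hpx was at the background and Saa3 was set by 1 array. The STAT3 site TTCNNNGAA (7.02% of promoters) was found in 0 of the 5. The interleukin-6 element CTGGGA (27.0%) and the TATA box TATAAA (12.4%) were each found in 1, Apoe. The NF-kB, HNF1 and glucocorticoid elements were found in 0 of the 5, and in 0.980%, 0.00913% and 0.00913% of all promoters.

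Genes whose 6 array values were most like those of Hp and Ahsg were looked for among 8176 probe sets with a mean of at least 4. For Hp these were Ccnt1, Frmd4a, Mtpap and H2aw (Pearson r 0.99 to 0.98, over 6 arrays that share the 2 genotype groups), and for Ahsg they were Ralgds, Cryl1, Stambp and Usp30 (0.99 to 0.98). Their own differences were smaller, from -0.42 (H2aw) to -0.15 (Frmd4a) and from 0.27 (Usp30) to 0.44 (Cryl1).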

How the data were processed

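Log2 values were deposited by the authors, who used RMA in Affymetrix Expression Console 1.0 and tested in Partek 6.5. The methods name an earlier array version than the deposited probe sets. No source used here gives the build behind the platform annotation. Of 41345 probe sets, 25341 with a symbol (1820 with several) were tested with limma 3.58.1 in R 4.3.3 by genotype alone, with Benjamini-Hochberg adjustment. No paired block was used. Genes with several probe sets used the one of highest mean.

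The members and lists were chosen with earlier results of these data known. Named genes were all members; per pathway list up to 4 of lowest p with a mean of at least 4 and up to 2 of highest mean; the 4 genes most like Hp and Ahsg; and up to 3 of highest mean per cell type list. Others, among them Cfi, Cebpd, Heph, Kng2, Itih2, Itih3, C8b, Abcg1, Orm2, Orm3, Cd14, Saa2, Saa4, Crp, Apcs, Il6, the Y-linked genes and the markers Adipoq, Plin1, Cidec, Lep, Trem2, Cd163, Alb, Apoa2, Fgb, Tat and Csf1r, and the neighbours, were named after their values were seen. Alternatives were a common array median, cyclic loess, array weights, a mean of at least 4, the methods' t-test, all probe sets, a replicate block and leaving out arrays. The number of arrays limits the precision. Plots used matplotlib 3.10.9.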

Additional observations from a re-analysis of the deposited data

How the results depend on the processing

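For the 8 genes, 124 alternative values lay within 1 SD of the replicates from the value reported. Of the differences of at least 1.5-fold, 1 reversed: Saa3 ranged from -1.42 (without WT 2) to 0.60 (without WT 3). Serpina3n (-0.05) and Hpx (-0.04), with differences near 0, also changed sign when some arrays were left out. Genes at least 1.5-fold apart numbered 5, 3 with a mean of at least 4, and 4 to 5 without 1 array. Pathway genes higher numbered 18, 6 by the methods' t-test, 7 without WT 1 and HCN4FEA 3 (chosen after seeing the data), and 7 to 20 without 1 array. Those lower numbered 3, 0 with a mean of at least 4, 5 with a common array median, 5 with cyclic loess, 5 without WT 1 and HCN4FEA 3, and 2 to 6 without 1 array. Over all probe sets 1547 had an unadjusted limma p under 0.05, 1021 by the methods' t-test, 637 with a mean of at least 4, 2445 over the whole table and 1303 to 2034 without 1 array. The split of 861 higher and 686 lower became 716 and 777 with a common array median and 765 and 749 with cyclic loess. Arrays of the same number showed no shared deviation (r -0.05, 0.09 and -0.03), but 3 arrays per genotype cannot exclude a pairing. With the replicate block 6 pathway genes were lower and 1587 probe sets passed. Adjusted counts were 0 throughout.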

Other observations

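Up to 3 protein-coding genes on each side of each of the 9 genes along the chromosome (RefSeq order), 48 of them measured, were read after the values had been seen. An unadjusted limma p under 0.05 was found for 4 of the 48 (8.33%), near the 6.1% of all probe sets. None of the 6 neighbours of Hp did, with differences from -0.02 to 0.25. Kng2 near Ahsg (-0.54, at the background) and Adig near Lbp (-0.71, an adipocyte gene) were lower. Rab6b near Trf (1.56) and Cavin3 near Hpx (0.34) were higher. None of these 4 was directly next to the named gene in that order. Fetub, the fetuin next to Ahsg, differed by 0.48 and did not pass.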
